A study of Mus musculus with 8 samples.

Results

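The miR-34 family was followed in the callus of mice whose osteotomized femurs either heal or develop a nonunion. Its members were taken by name from the scanner output, as every probe set for an arm of miR-34a, miR-34b or miR-34c, and this gave 6 of the 1079 murine miRs on the arrays. The 6 members are the 5p and the 3p arm of each of the 3 precursors (mmu-miR-34a-5p, mmu-miR-34a-3p, mmu-miR-34b-5p, mmu-miR-34b-3p, mmu-miR-34c-5p and mmu-miR-34c-3p, the prefix for mouse being left out below). CD-1 mice, adult animals of both sexes, carried an intramedullary pin and a clip in the femur. In the Union group (n = 4, specimens P17 to P20) the gap was 0.25 mm. In the Non-union group (n = 4, specimens P13 to P16) it was 1.8 mm and the periosteum next to the gap was stripped, so that gap size and periosteal stripping cannot be told apart. Callus was harvested on day 7 in both groups. The group names stand for the outcome that this model is known for, which cannot be seen at that time. Each specimen was hybridized to 1 array, and whole callus holds bone, cartilage, vessels, blood and muscle remnants. Fewer cells of a type and less miR per cell cannot be told apart in such a sample.

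MiRs of the miR-34 family are direct transcriptional targets of the tumor suppressor p53. They slow the cell cycle and favour apoptosis by repressing cyclins, cyclin-dependent kinases, Bcl2, Met and Sirt1. In bone, miR-34c is known to act on osteoblasts through Notch signalling and Runx2, and miR-34a to limit the formation of osteoclasts. Mir34a is a gene of its own, whereas Mir34b and Mir34c lie side by side and are transcribed together. In the RefSeq annotation of GRCm38.p6, Mir34a is on chromosome 4 between Gm13067 and Gpr157 and overlaps no other annotated gene. Mir34b and Mir34c are neighbours on chromosome 9, between Layn and Gm32742, and lie in the annotated spans of Btg4 and Hoatz.

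The mature sequences of 5 of the 6 members were found in RefSeq (GRCm38.p6). The 5p arms are shown first, with the seed (bases 2 to 8, which pair with the target mRNA) in capitals, because the shared seed is what makes these miRs 1 family. MiR-34c-5p, the remaining 5p arm of the family, had no mature sequence there, so that none is shown.
miR-34a-5p: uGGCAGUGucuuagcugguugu
miR-34b-5p: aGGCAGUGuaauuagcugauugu
miR-449a-5p: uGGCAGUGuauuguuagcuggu
miR-449c-5p: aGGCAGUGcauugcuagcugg

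The seed GGCAGUG was held by 4 of the 1679 mature miRs of the RefSeq table, all 4 of which had probes on the arrays. MiR-34c-5p and miR-449b had no entry in it, so that this count leaves them out and is not the size of the seed family. MiR-34a-5p and miR-34b-5p shared 19 bases when the full sequences (22 and 23 bases) were aligned. MiR-449a-5p and miR-449c-5p come from a separate cluster on chromosome 13 that is known for its activity in multiciliated epithelium. The 3p arms carry other seeds, and those of miR-34b-3p and miR-34c-3p are the same.
miR-34a-3p: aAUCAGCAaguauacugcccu
miR-34b-3p: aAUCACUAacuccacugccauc
miR-34c-3p: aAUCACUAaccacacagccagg

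The callus contained the 5p arms and no measurable 3p arm. MiR-34a-5p, miR-34b-5p and miR-34c-5p were detected on all 8 arrays, with 40 of 40 spots well above background on every array and no saturated spot. MiR-34a-3p, miR-34b-3p and miR-34c-3p were detected on no array. At most 1 of their 40 spots was well above background on any array, and the summed signal of their probes stayed between -2.79 and 2.12 units. The lowest merged signal of a miR (defined below) that counted as detected was 2.16 units. The 2 measures are not equal in general, being within 0.1% of each other for 2099 of 2896 detected values. No fold change was therefore computed for the 3p arms, whose level can only be given as below detection in both groups. Both hairpins that RefSeq lists with both arms are shown with the detected 5p arm in capitals. The undetected 3p arm occupies bases 64 to 84 of Mir34a and bases 51 to 72 of Mir34b.
Mir34a: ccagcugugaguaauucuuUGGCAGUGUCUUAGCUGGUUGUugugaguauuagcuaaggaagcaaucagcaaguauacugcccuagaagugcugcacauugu
Mir34b: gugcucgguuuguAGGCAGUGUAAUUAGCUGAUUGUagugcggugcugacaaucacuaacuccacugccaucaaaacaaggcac

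The other carriers of the seed found in the RefSeq table were not measurable either. MiR-449a-5p and miR-449c-5p were detected on none of the 8 arrays, nor were miR-449b and miR-449a-3p. Of the 1079 murine miRs on the arrays, 840 had a mature sequence under their name in the RefSeq table. The seed of the rest was not checked. Among the miRs that could be checked, those with the seed GGCAGUG that were detected were miR-34a-5p and miR-34b-5p.

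The values below are the merged signal, which is the background-corrected signal of a miR over its 40 spots in scanner units, and the normalized log2 signal, which is its log2 after quantile normalization over all murine miRs. The merged signals of all miRs summed to between 183589 and 279341 units on the Non-union arrays and to between 227941 and 360063 units on those of the Union group, with p = 0.229 in the two-sided exact permutation test. Negative control spots were brighter on the Non-union arrays, with a net signal of 52.7 ± 1.82 (SD, n = 4) against 47.2 ± 0.445 (SD, n = 4) and a two-sided p of 0.0286 in the exact permutation test, the smallest that 4 against 4 arrays allow. All arrays were on 1 slide, with each group in its own row, so that row and group cannot be told apart. Array P20 of the Union group stood apart in miRs of leukocytes, and the differences of the members without it are given below.

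MiR-34a-5p differed between the groups in merged signal by less than either SD, and in normalized log2 signal by less than the Union SD alone. It averaged 603 ± 83.3 units (SD, n = 4) in the Non-union and 577 ± 158 units (SD, n = 4) in the Union group. Its merged signal was 661, 648, 623 and 481 units on P13 to P16 of the Non-union group. On P17 to P20 of the Union group it was 489, 475, 532 and 811 units. P20 of the Union group was above every Non-union array, whereas P17 and P18 were near the lowest Non-union array, P16. In normalized log2 signal the Non-union mean was 9.23 ± 0.06 (SD, n = 4) and the Union mean 9.08 ± 0.49 (SD, n = 4). The normalized values of P13, P14 and P15 were identical, since miR-34a-5p had the same rank on these arrays and quantile normalization keeps ranks only. The log2 difference, Non-union minus Union, was 0.15 (SE 0.25, 95% confidence interval -0.43 to 0.72, limma adjusted p = 0.708), a fold change of 1.11. It came to -0.0070 without P17, to 0.09 without P18 and to 0.36 without P20 (SE 0.19, limma adjusted p = 0.315).

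**Figure D1:**
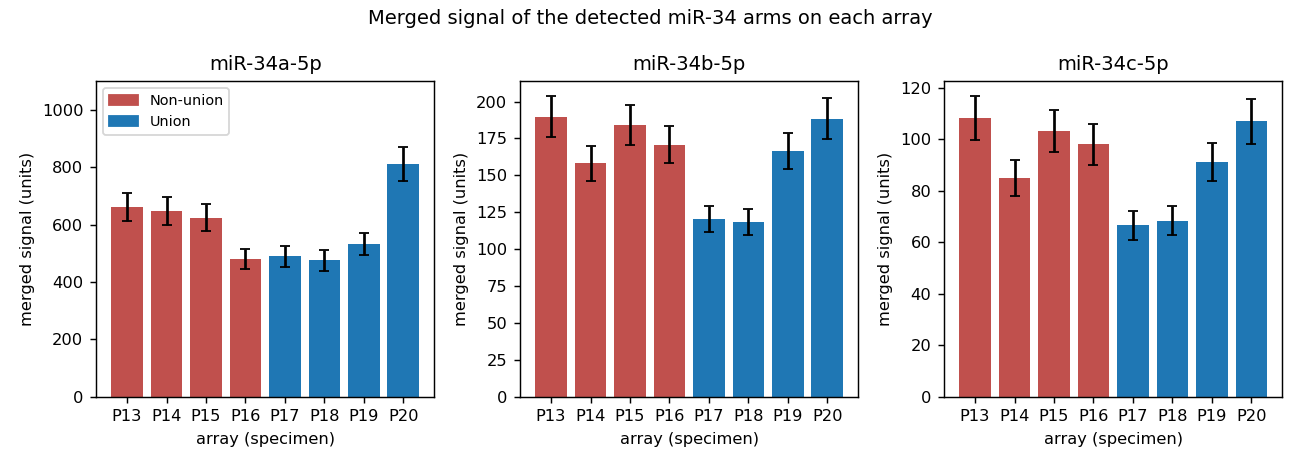
Merged signal in scanner units (y axis, linear, from 0) of miR-34a-5p, miR-34b-5p and miR-34c-5p on each of the 8 arrays (x axis); error bars are the signal error given by the scanner software for that array. MiR-34b-5p and miR-34c-5p are lowest on P17 and P18 and highest on P13, closely followed by P20. MiR-34a-5p is lowest on P18, at 475 units, and highest on P20, at 811 units.

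MiR-34b-5p and miR-34c-5p, the pair from the common transcript, had a higher mean in the Non-union group. The difference was below the SD of the Union group but above that of the Non-union group. The merged signal of miR-34b-5p was 190, 158, 184 and 171 units on P13 to P16. It was 121, 118, 166 and 188 units on P17 to P20. P17 and P18 were below all Non-union arrays, but P19 and P20 were among them. In normalized log2 signal the Non-union mean was 7.53 ± 0.31 (SD, n = 4) and the Union mean 7.07 ± 0.53 (SD, n = 4). Their difference was 0.46 (SE 0.29, 95% confidence interval -0.20 to 1.12, limma adjusted p = 0.386), a fold change of 1.38. It was 0.29 without P17 (SE 0.29, limma adjusted p = 0.630), 0.62 without P20 (SE 0.29, limma adjusted p = 0.298) and 0.27 without normalization.

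For miR-34c-5p the merged signal was 108, 85.2, 103 and 98.2 units on P13 to P16. It was 66.6, 68.4, 91.3 and 107.1 units on P17 to P20. The order of the arrays resembled that of miR-34b-5p, again with P17 and P18 lowest and with P20 at the level of the Non-union arrays. In normalized log2 signal the Non-union mean was 6.77 ± 0.35 (SD, n = 4) and the Union mean 6.22 ± 0.61 (SD, n = 4). Their difference was 0.55 (SE 0.33, 95% confidence interval -0.19 to 1.28, limma adjusted p = 0.378), a fold change of 1.46. Leaving out P17 lowered it to 0.36 (SE 0.33, limma adjusted p = 0.627) and leaving out P18 to 0.39 (SE 0.34, limma adjusted p = 0.630). Leaving out P20 raised it to 0.77 (SE 0.30), with an unadjusted limma p of 0.034 and an adjusted p of 0.286. Without normalization it was 0.27, the same as that of miR-34b-5p.

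**Figure D2:**
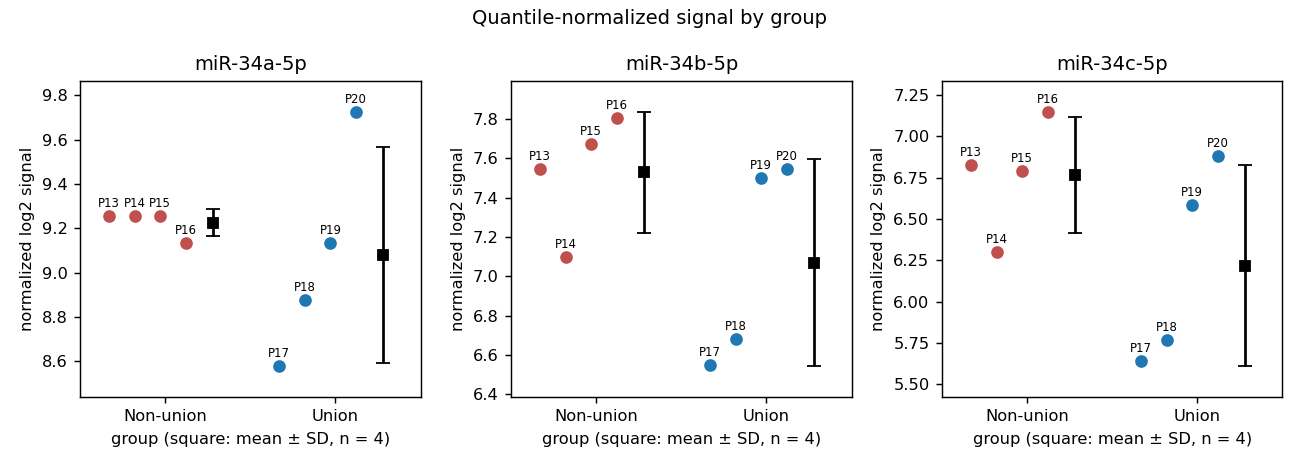
Quantile-normalized log2 signal (y axis) of the 3 detected members in the Non-union and Union groups (x axis); circles are arrays labelled by specimen, and squares with bars are the mean ± SD of 4 arrays. The groups overlap for each member, and the Union arrays spread more widely than the Non-union arrays, with SDs of 0.49 to 0.61 against 0.06 to 0.35.

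Of the 3 detected members, 0 had an adjusted limma p under 0.05 and 0 an unadjusted limma p under 0.05. Over all 310 miRs tested, 0.323% passed the adjusted and 13.9% the unadjusted threshold, and 9.68% passed the latter with a higher mean in the Non-union group. A fold change of 2 or more in either direction was reached by 0 of the 3 members and by 8.39% of the tested miRs. The exact permutation test over the 70 arrangements of the arrays gave two-sided p-values of 0.60 for miR-34a-5p, 0.20 for miR-34b-5p and 0.229 for miR-34c-5p. The groups overlapped for all 3 members, and they were separate for 3.87% of the tested miRs. All 3 members had a mean difference above 0, as did 59.4% of the tested miRs. Without normalization all 3 were also above 0, at 0.09, 0.27 and 0.27, but only 40.3% of the tested miRs were. The median log2 difference of all tested miRs was 0.15, and relative to this median miR-34a-5p differed by -0.00089, miR-34b-5p by 0.31 and miR-34c-5p by 0.40. The median of all tested miRs without normalization was -0.10, and the members lay 0.19, 0.37 and 0.37 above it. A larger difference than that of the member was found for 50% of the tested miRs in the case of miR-34a-5p, for 26.5% in that of miR-34b-5p and for 17.4% in that of miR-34c-5p. The upper ends of the confidence intervals correspond to fold changes of 1.65, 2.18 and 2.43, so that a doubling in the Non-union group lies outside the interval for miR-34a-5p, but inside it for miR-34b-5p and miR-34c-5p.

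**Figure D3:**
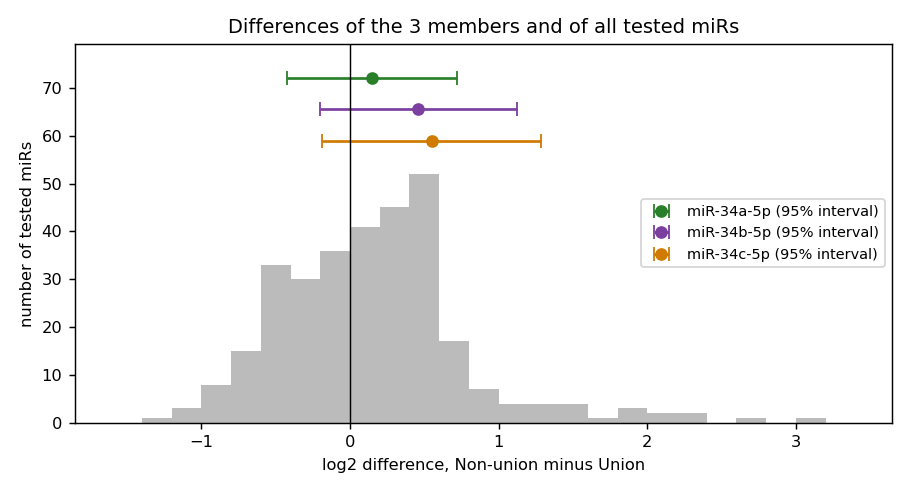
Histogram of the log2 difference, Non-union minus Union, of the 310 tested miRs (x axis; y axis, number of miRs per bin of 0.2), with the 3 members and their 95% confidence intervals drawn above it at arbitrary height. All 3 intervals include 0, and miR-34a-5p lies at the median of the tested miRs, 0.15.

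The error of measurement was smaller than the spread between arrays of a group, but only slightly so for miR-34b-5p in the Non-union group. The scanner software gave an error of 7.42 to 7.48% of the signal for miR-34a-5p, 7.35 to 7.47% for miR-34b-5p and 7.96 to 8.40% for miR-34c-5p. The coefficient of variation of the merged signal between arrays was 13.8% in the Non-union and 27.4% in the Union group for miR-34a-5p. It was 8.07% and 23.4% for miR-34b-5p and 10.06% and 23.3% for miR-34c-5p. The highest merged signal of a member exceeded its lowest by a factor of 1.60 to 1.71, against a median factor of 2.57 over the tested miRs. After normalization this factor was 2.22 for miR-34a-5p, 2.39 for miR-34b-5p and 2.85 for miR-34c-5p, against a median of 2.53, so that miR-34c-5p then lay above the median. Each member was read by 2 probes of 20 spots, and both probes gave the same picture. The brighter probe exceeded the dimmer one by a factor of 1.89 to 2.02 for miR-34a-5p, 1.56 to 1.69 for miR-34b-5p and 2.49 to 2.86 for miR-34c-5p. The log2 differences between the groups were 0.25 and 0.13 for the probes of miR-34a-5p, 0.47 and 0.53 for those of miR-34b-5p and 0.47 and 0.48 for those of miR-34c-5p.

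MiR-34b-5p and miR-34c-5p kept a nearly constant ratio of merged signals on all arrays. The merged signal of miR-34c-5p divided by that of miR-34b-5p was 0.571, 0.539, 0.561 and 0.575 on P13 to P16. It was 0.552, 0.579, 0.549 and 0.569 on P17 to P20. The height of this ratio depends on the probes and is no relative abundance, but it varied by no more than 7.40% from the lowest to the highest array, while either signal varied by a factor of at least 1.60. Its mean was 0.561 ± 0.0160 (SD, n = 4) in the Non-union and 0.562 ± 0.0141 (SD, n = 4) in the Union group (two-sided exact permutation test on the log2 ratio, p = 0.971). The SD of the log2 ratio over the 8 arrays was 0.036, within the range of 0.031 to 0.058 found between both probes of a single member. Among the 47895 pairs that can be formed of the tested miRs, 3 had a smaller SD, and the median SD was 0.616. On the normalized signals the SD of this log2 ratio was 0.112, and 173 pairs had a smaller one, with a median of 0.680. The 3 pairs on the merged signals, named after their values were seen, were miR-195-5p with miR-497-5p, miR-20a-5p with miR-20b-5p and miR-19b-3p with miR-20a-5p. The pairs share members and are not independent, so that this is a description. The files hold no probe sequences, and whether a probe of one of the closely related miRs also binds the other was not tested.

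**Figure D4:**
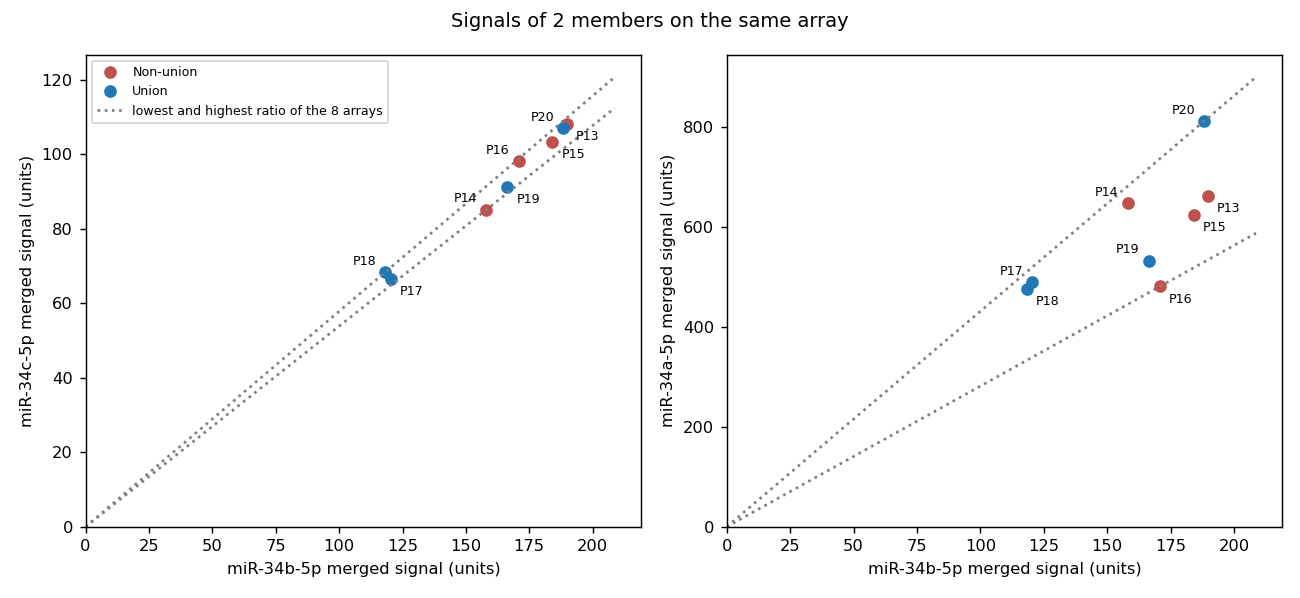
Merged signals (scanner units, linear axes from 0) of miR-34c-5p against miR-34b-5p (left) and of miR-34a-5p against miR-34b-5p (right), 1 point per array; dotted lines are the lowest and the highest ratio of the 8 arrays. The ratio on the left lies between 0.539 and 0.579 on all arrays, whereas the points on the right fan out.

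The ratio of the clustered pair to miR-34a-5p was less constant. The merged signal of miR-34b-5p divided by that of miR-34a-5p ranged from 0.232 on P20 to 0.356 on P16. That of miR-34c-5p divided by that of miR-34a-5p ranged from 0.131 on P14 to 0.204 on P16. In normalized log2 signal, the ratio of miR-34b-5p to miR-34a-5p was higher in the Non-union group by 0.31 (two-sided exact permutation test, p = 0.229). The ratio of miR-34c-5p to miR-34a-5p was higher by 0.40 (two-sided exact permutation test, p = 0.143) and that of miR-34c-5p to miR-34b-5p by 0.09 (two-sided exact permutation test, p = 0.286). With adjustment over these 3 ratios each p was 0.286, so that no member was shown to change differently from another. On the merged signals, where no normalization entered, these 3 differences were 0.18, 0.18 and -0.0019.

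Over the 8 arrays, the normalized log2 signals of miR-34c-5p and miR-34b-5p had a Pearson r of 0.99 (exact permutation test, p = 0.00040) and a Spearman rho of 0.92 (exact permutation test, p = 0.0025). Adjusted over the 3 pairs of members, these p-values were 0.0012 and 0.0074. Without P17 and P18, the arrays farthest from the median, r was 0.93. For miR-34c-5p and miR-34a-5p, r was 0.75 (exact permutation test, p = 0.031, adjusted p = 0.046) and rho was 0.61 (exact permutation test, p = 0.109, adjusted p = 0.163). Without P17 and P20 this r was 0.65. For miR-34b-5p and miR-34a-5p, r was 0.71 (exact permutation test, p = 0.05, adjusted p = 0.05) and rho was 0.54 (exact permutation test, p = 0.167, adjusted p = 0.167), with an r of 0.65 without P17 and P20. With 4 arrays in each group, no correlation within a group was computed. The members share the array and its normalization in each of these pairs, and the ranks of these r among the other tested miRs are given below.

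The miRs with the most similar pattern over the 8 arrays were sought among the other 309 tested miRs by Pearson r. For miR-34b-5p they were miR-34c-5p (0.99), miR-324-3p (0.98) and miR-181c-5p (0.98). For miR-34c-5p they were miR-34b-5p (0.99), miR-324-3p (0.99) and let-7a-1-3p (0.98). For miR-34a-5p they were miR-467a-3p (0.93), miR-669f-3p (0.93) and miR-467e-5p (0.92). Let-7a-1-3p was very dim on P17 and P18, with normalized log2 signals of -2.10 and -2.14 against 0.44 to 2.78 on the other arrays. Its r without these arrays was not computed. The nearest family member of miR-34a-5p was miR-34c-5p, at rank 37. Seen from the clustered pair, miR-34a-5p was at rank 97 of 309 for miR-34b-5p and at rank 80 of 309 for miR-34c-5p. The clustered pair and miR-34a-5p therefore had different nearest neighbours in this list.

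Other miRs tied to p53 were compared from a list of 11. It holds miR-192-5p, miR-194-5p and miR-215-5p, which p53 induces, miR-107-3p, miR-143-3p, miR-145-5p, miR-15a-5p, miR-16-5p and miR-16-1-3p, which are linked to p53 through transcription or processing, and miR-200c-3p and miR-141-3p, which restrain epithelial-mesenchymal transition. On all 8 arrays 7 of the 11 were detected, and 0 of these 7 had an adjusted and 0 an unadjusted limma p under 0.05. Over all tested miRs, 0.323% passed the adjusted and 13.9% the unadjusted threshold, so that few of 7 miRs would pass at these shares. Of the 7, 4 had a difference above and 3 below 0, with a median log2 difference of 0.07 against 0.15 over all tested miRs. The values lay between -0.14 for miR-15a-5p (SE 0.23, limma adjusted p = 0.700) and 0.53 for miR-145-5p (SE 0.44, limma adjusted p = 0.440). MiR-192-5p had a log2 difference of -0.09 and miR-194-5p one of 0.19. On P20, where miR-34a-5p was highest, miR-192-5p (5.09), miR-194-5p (3.72), miR-107-3p (8.88), miR-15a-5p (11.01) and miR-16-5p (11.10) were also highest of the 8 arrays in normalized log2 signal. Of all 310 tested miRs, 74 (23.9%) were highest on P20. MiR-143-3p was highest on P14, with 7.70 on P20, and miR-145-5p was lowest on P20, at 1.96. In merged signal miR-107-3p was highest on P14, at 448 units against 442 on P20. MiR-192-5p, miR-194-5p, miR-15a-5p and miR-16-5p were highest on P20 in merged signal too. MiR-215-5p and miR-16-1-3p were detected on no array. MiR-200c-3p and miR-141-3p, from 1 cluster, were detected on P20 alone, at 4.89 and 6.41 units.

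The summed normalized signal of cell type marker miRs was set beside these values. All 4 cartilage markers, which are the arms of miR-140 and of miR-455, had an unadjusted limma p under 0.05 and were higher in the Non-union group, as were 9.68% of all tested miRs, but none passed after adjustment (limma adjusted p = 0.288 to 0.313). Their log2 sum lay between 9.81 and 11.94 in the Non-union and between 8.79 and 10.01 in the Union group (two-sided exact permutation test, p = 0.0571). It was lowest on P17 and P18 and highest on P16. So was the normalized signal of miR-34b-5p and miR-34c-5p, apart from the order of P17 and P18. Over all arrays, r of the cartilage sum with miR-34b-5p was 0.84 and with miR-34c-5p 0.83. In the same order, r was -0.73 and -0.78 for skeletal muscle and -0.75 and -0.72 for red blood cells. For leukocytes r was 0.16 and 0.22, and for endothelium 0.09 and 0.08. The muscle sum was lowest on P16 and highest on P17, so that a relation to the pair was not particular to cartilage. In normalized signal, 86 (27.7%) of the 310 tested miRs were highest on P16. In merged signal both miRs were highest on P13, at 190 and 108 units, against 171 and 98.2 units on P16. For the leukocyte list, 3 of 4 markers were detected on all arrays and miR-223-5p on none. Of the 3, 1 had an unadjusted limma p under 0.05, as had 13.9% of all tested miRs. None passed after adjustment (limma adjusted p = 0.346 to 0.549). The log2 sum of this list lay between 11.72 and 12.24 in the Non-union and between 12.25 and 14.44 in the Union group. The two-sided exact permutation test gave p = 0.0286, the smallest that 4 against 4 arrays allow. The groups nearly met, at 12.24 on P13 and 12.25 on P18, and the highest value was on P20. Of the single tested miRs, 3.87% had separate groups. The part of these cell types in the signals of the miR-34 family was not tested. For skeletal muscle, 4 of 6 markers were detected on all arrays. Their log2 sum was 14.53 to 15.80 in the Non-union and 15.25 to 15.98 in the Union group (two-sided exact permutation test, p = 0.514). For red blood cells, 3 of the 4 listed markers were found on the arrays. Their log2 sum was 11.74 to 13.31 and 11.56 to 13.25 (two-sided exact permutation test, p = 0.914). The 2 arms of miR-126, from endothelium, summed to 11.13 to 11.35 and to 11.30 to 11.82 (two-sided exact permutation test, p = 0.0571, the same as for cartilage). Their log2 difference was -0.26. Of the 9 epithelial markers 0 were detected on all arrays and 7 on none, among them all 3 of miR-449, which defines multiciliated cells.

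**Figure D5:**
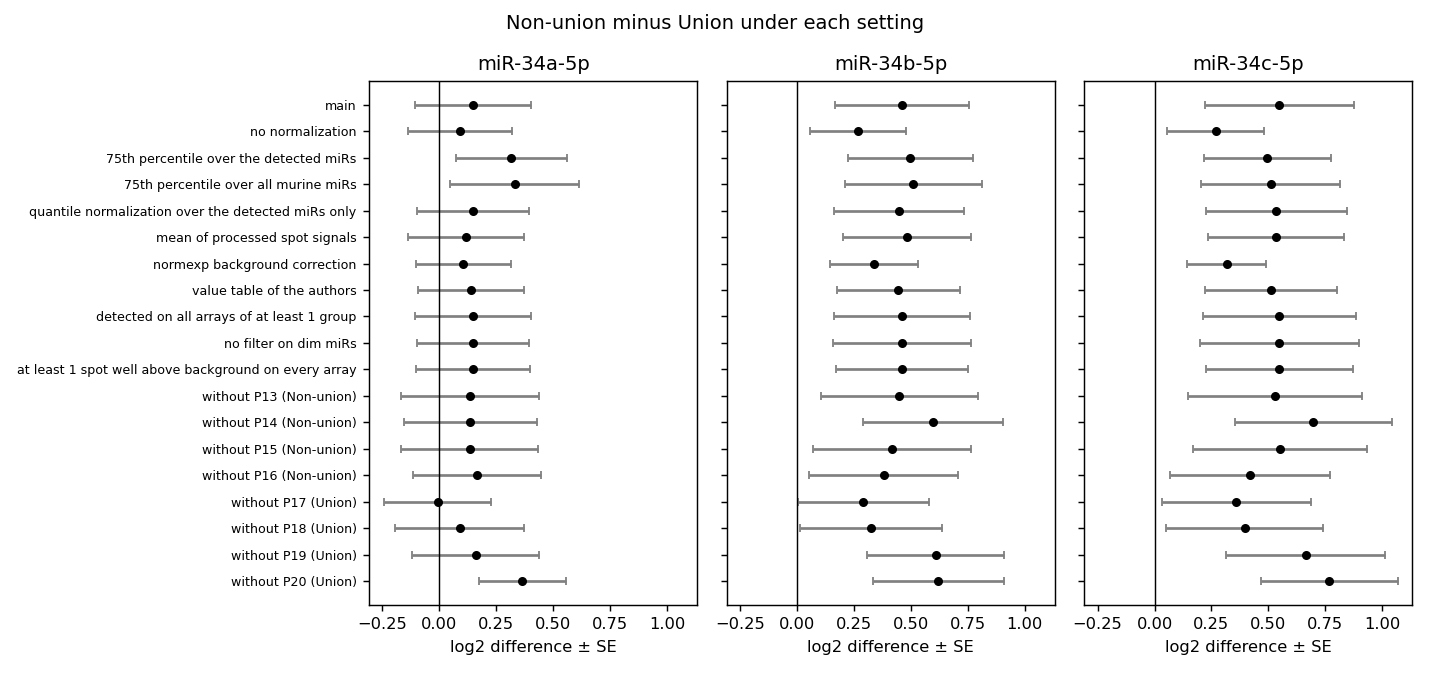
Log2 difference, Non-union minus Union (x axis, same scale in all panels), of the 3 detected members with its SE under each processing setting and with each array left out (y axis). The points of miR-34b-5p and miR-34c-5p lie above 0 in all settings drawn, from 0.27 to 0.62 and from 0.27 to 0.77, and that of miR-34a-5p reaches -0.0070 without P17. The settings with another filter repeat the difference of the main setting, because the normalized values are the same.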

How the data were processed

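Total RNA of 8 callus specimens was labelled with Cy3 and hybridized to Agilent miR microarrays. The authors deposited the intensity output of Agilent Feature Extraction 10.10.1.1 (background-corrected signals per spot, probe and miR, and a detection call), with a merged signal of 0.1 for undetected miRs. They also deposited a table of normalized log2 values. Groups were taken from the labels. The log2 of the merged signals was quantile normalized over the 1079 murine miRs. The groups were compared for the 310 miRs with detection on every array, with limma 3.58.1 in R 4.3.3 (lmFit, eBayes, two-sided, Benjamini-Hochberg over all tested miRs). The fit was tested on simulated data. Python 3.11.15, scipy 1.17.1, Biopython 1.88 (global alignment with free end gaps) and matplotlib 3.10.9 were used for the rest.

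Named miRs were the members, the miRs with their seed, the p53-linked list and, for each detected member, the 3 miRs with the highest correlation. The members and lists were chosen with earlier results of these data known. Specimens are taken as separate animals. Precision is limited by the number of arrays. Alternatives were no normalization, the 75th percentile of the detected or of all miRs, quantile normalization over the detected miRs, averaged processed spot signals (4429 averages at or below 0 were set to 0.1), normexp on median spot signals (offset 50), other filters, single probes, the deposited table and leaving out each array. A slide block could not be fitted with 1 slide.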

Additional observations from a re-analysis of the deposited data

Results flagged for a closer look

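Single arrays far from the rest of their group were sought with Dixon's ratio at its 95% critical value. The detected members, their ratios, the p53-linked miRs and the marker sums gave 36 groups, of which 5 were marked, where chance flags about 1 in 20 groups, or 1.8 of 36. MiR-34a-5p on P16 had a normalized log2 signal of 9.13, below the common value of 9.26 on the other Non-union arrays. Since quantile normalization gave those 3 arrays the same value, any other value on P16 would have been marked, and this one is no sign of an outlying array. Without it 4 of 35 groups were marked, where 1.75 are due to chance. On the merged signals Dixon's ratio of miR-34a-5p was 0.790 in the Non-union group, below the critical value, and 0.831 for P20 of the Union group, just above it. The log2 ratio of miR-34c-5p to miR-34b-5p on P20 was -0.67, against -0.92 to -0.91 on the other Union arrays, although its ratio of merged signals, 0.569, lay within the range of that group. Among the p53-linked miRs, miR-143-3p had 8.41 on P14 against 7.76 to 7.83 on the other Non-union arrays, and miR-145-5p had 1.96 on P20 against 3.52 to 3.82 on the other Union arrays. The log2 sum of the leukocyte markers was 14.44 on P20 against 12.25 to 12.62 on the other Union arrays. The causes were not tested.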

How the results depend on the processing

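With 21 alternatives for each detected member, the log2 difference of miR-34b-5p stayed above 0 (0.27 to 0.62) and so did that of miR-34c-5p (0.27 to 0.77), while that of miR-34a-5p lay between -0.0070 and 0.36. The exact permutation test and the other filters use the normalized values of the main setting. They repeat its difference and could change only the p-value. With each array left out, the ranges were -0.0070 to 0.36 for miR-34a-5p, 0.29 to 0.62 for miR-34b-5p and 0.36 to 0.77 for miR-34c-5p. The only unadjusted limma p under 0.05 among these was that of miR-34c-5p without P20, and adjusted p-values ranged from 0.167 to 0.996. The difference in the log2 ratio of miR-34c-5p to miR-34b-5p was -0.0019 without normalization and with either 75th percentile, and -0.021 with normexp. The ratios to miR-34a-5p kept their direction in 15 of 15 alternatives each. Among these, no normalization and both 75th percentiles give 1 and the same result, since a scaling of the whole array cancels in the ratio. The 43 tested miRs with an unadjusted limma p under 0.05 became 18 (without P17) to 115 (without P19) with 1 array left out. The single miR with an adjusted p under 0.05 became 0 without normalization, with the 75th percentile over all miRs and with normexp, 2 with quantile normalization over the detected miRs or with no filter, 3 with detection in at least 1 group, and 0 to 12 with 1 array left out. Of the p53-linked miRs, 0 passed the unadjusted threshold in all 18 alternatives. If 1 spot well above background is taken as detection, miR-34a-3p was detected on 2 arrays and miR-34c-3p on 1. The bound planned for members detected on some arrays was not needed. No paired analysis was possible because the labels give the groups no shared numbers. The causes of these changes were not tested.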
